A study of Homo sapiens with 12 samples.

Results

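Costimulation and adhesion ligands are proteins on the surface of an antigen-presenting cell that decide how a T cell answers the antigen it is shown. The mRNAs of 8 such genes, or of genes that act beside them, were followed in cultures of U937, a human leukemia line of the monocyte lineage, given the nitric oxide donor JS-K. The genes were taken by name: CD86 and CD80, CD83, CD40, CD274, ICAM1, CD74 and CIITA. They make up 8 of the 19775 genes measured on the arrays and 22 of the 41097 probe sets listed with a single gene symbol. The groups were 3 arrays of cells given the DMSO vehicle and 3 arrays each of cells given JS-K for 90 min, 4 h and 24 h, all of the same line grown in the same medium. The dose of JS-K and the time of exposure to DMSO are not given in the sources used here. As there was a single vehicle group, time in culture and JS-K cannot be told apart. The 3 arrays of a group are labelled as biological replicates. What separates them is not stated, so the p-values measure only the spread between these arrays.

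A T cell that meets its antigen needs a second signal, which CD80 and CD86 give through the receptor CD28, while the receptor CTLA4 binds the same ligands and restrains the response. CD274, also called PD-L1, restrains T cells through the receptor PD-1, and CD40 carries the helper T cell's signal back into the presenting cell. ICAM1 holds the cells together by binding the integrin LFA-1, CD74 is the invariant chain that escorts MHC class II molecules and also a surface receptor of the cytokine MIF, and CIITA is the master activator of MHC class II genes. In monocytes, CD86 is commonly present at a low level and rises with activation or differentiation, and CD83 marks mature dendritic cells.

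For the 4 genes with a level above low signal, the promoter sequence is shown, since these are the genes whose mRNA moved. The windows are the 250 bases before a transcription start listed by RefSeq on GRCh38.p14, written 5′ to 3′ on the gene's own strand: chr3:122055112-122055361 on the plus strand for CD86, chr6:14117522-14117771 on the plus strand for the second listed start of CD83, chr19:10270870-10271119 on the plus strand for ICAM1 and chr5:150412911-150413160 on the minus strand for CD74. Capitals mark matches to 5 short motifs that were searched on both strands.
CD86: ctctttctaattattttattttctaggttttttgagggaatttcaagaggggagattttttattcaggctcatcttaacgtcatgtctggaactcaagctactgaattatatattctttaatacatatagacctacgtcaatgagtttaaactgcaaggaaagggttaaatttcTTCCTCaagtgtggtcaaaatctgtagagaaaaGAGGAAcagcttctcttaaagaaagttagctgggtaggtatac
CD83: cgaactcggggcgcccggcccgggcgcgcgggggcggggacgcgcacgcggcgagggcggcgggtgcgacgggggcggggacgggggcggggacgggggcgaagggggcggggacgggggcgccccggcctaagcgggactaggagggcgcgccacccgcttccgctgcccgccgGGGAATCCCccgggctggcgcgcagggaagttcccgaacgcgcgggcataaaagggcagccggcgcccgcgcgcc
ICAM1: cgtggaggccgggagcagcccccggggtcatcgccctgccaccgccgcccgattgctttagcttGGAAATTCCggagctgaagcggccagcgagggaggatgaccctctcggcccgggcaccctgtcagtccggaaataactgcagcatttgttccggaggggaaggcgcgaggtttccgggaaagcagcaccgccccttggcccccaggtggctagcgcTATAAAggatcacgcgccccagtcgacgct
CD74: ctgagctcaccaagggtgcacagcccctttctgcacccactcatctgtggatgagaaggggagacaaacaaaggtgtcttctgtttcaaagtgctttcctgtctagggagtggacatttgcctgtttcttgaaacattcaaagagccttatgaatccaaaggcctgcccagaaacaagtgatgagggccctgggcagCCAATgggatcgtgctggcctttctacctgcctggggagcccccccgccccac
The CD86 window holds GAGGAA, a purine-rich core read by the myeloid factor PU.1, on the plus strand 43 to 38 bases upstream of the start and on the opposite strand 76 to 71 bases upstream. Of all 35116 windows of this length, 23.6% hold that motif. CD86 has 2 such windows, and the second, which is not printed, holds none of the motifs. The kappaB form GGGAATCCC lies 75 to 67 bases upstream of the second CD83 start and is found in 0.362% of windows. The window of the first CD83 start, which is not printed, holds neither kappaB form. It holds TATAAA 236 to 231 bases upstream and, on the opposite strand, 243 to 238 bases upstream. In ICAM1 the kappaB form GGAAATTCC lies 186 to 178 bases upstream and is found in 0.413% of windows, and TATAAA, the core of the TATA box, lies 30 to 25 bases upstream (10.7% of windows). The CD74 window holds CCAAT, the box read by the factor NF-Y, 53 to 49 bases upstream (32% of windows). None of the motifs overlap one another in these windows, and binding by any factor was not measured. The windows of CD80 and CD274, 1 each, were searched too and hold none of the motifs, while CD40 and CIITA had no window.

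Values are the deposited log2 expression levels, and a level of 4 was taken here as the edge of low signal. All differences are fitted log2 differences from limma with their standard errors, and adjusted p-values follow Benjamini and Hochberg over all 19775 genes, with a gene called at an adjusted p under 0.05. The array medians ran between 2.84 and 2.99, except 3.10 for replicate 2 of the 4 h group. The added poly-A control transcripts averaged 3.04, 3.08, 7.02 and 8.47 for vehicle, 90 min, 4 h and 24 h, and the hybridization controls averaged 9.96, 10.0, 10.2 and 11.7. The poly-A controls were thus higher on the arrays of 4 h and 24 h, and the hybridization controls were highest on those of 24 h. The part of what either set of controls reflects in the level of any gene was not tested. The median difference from vehicle over all genes was 0.01, 0.06 and 0.06 at 90 min, 4 h and 24 h.

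Of the 8 genes, 4 passed a moderated F test over the 4 groups, namely CD86, CD83, ICAM1 and CD74, against 38.1% of all genes. Against vehicle, none was called at 90 min (limma, 2 at an unadjusted p under 0.05; 9.64% of all genes called, 4.03% higher and 5.62% lower). At 4 h, CD83 and CD74 rose and ICAM1 fell (40.6% of all genes called, 23.9% higher and 16.6% lower). At 24 h, CD86 and CD83 rose and none fell (36.7% of all genes called, 17.8% higher and 18.9% lower). CD83 alone was called between 4 h and 90 min, where it was higher at 4 h (10.6% of all genes called, 3.33% higher and 7.25% lower). Between 24 h and 4 h, CD86 and ICAM1 rose while CD83 and CD74 fell (23.5% of all genes called, 12.8% higher and 10.7% lower). With 8 genes, these counts are not read as a result about the genes as a set. Single arrays moved them: 2 genes were called at 90 min without 4 h replicate 1, 5 at 4 h without 4 h replicate 3, 5 at 24 h without 4 h replicate 2, and 2 for 24 h against 4 h without 4 h replicate 1, 24 h replicate 1 or 24 h replicate 3. In those fits 2086, 11578 and 14505 of all 19775 genes were called at 90 min, 4 h and 24 h, and 22.8%, 20.9% and 21.1% of all genes for 24 h against 4 h. The number of all genes called at 4 h ran from 3423 (without vehicle replicate 3) to 11578 (without 4 h replicate 3), against 8021 with all arrays. The median differences of the 8 genes from vehicle were 0.02, 0.10 and 0.12 at the 3 times.

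**Figure D1:**
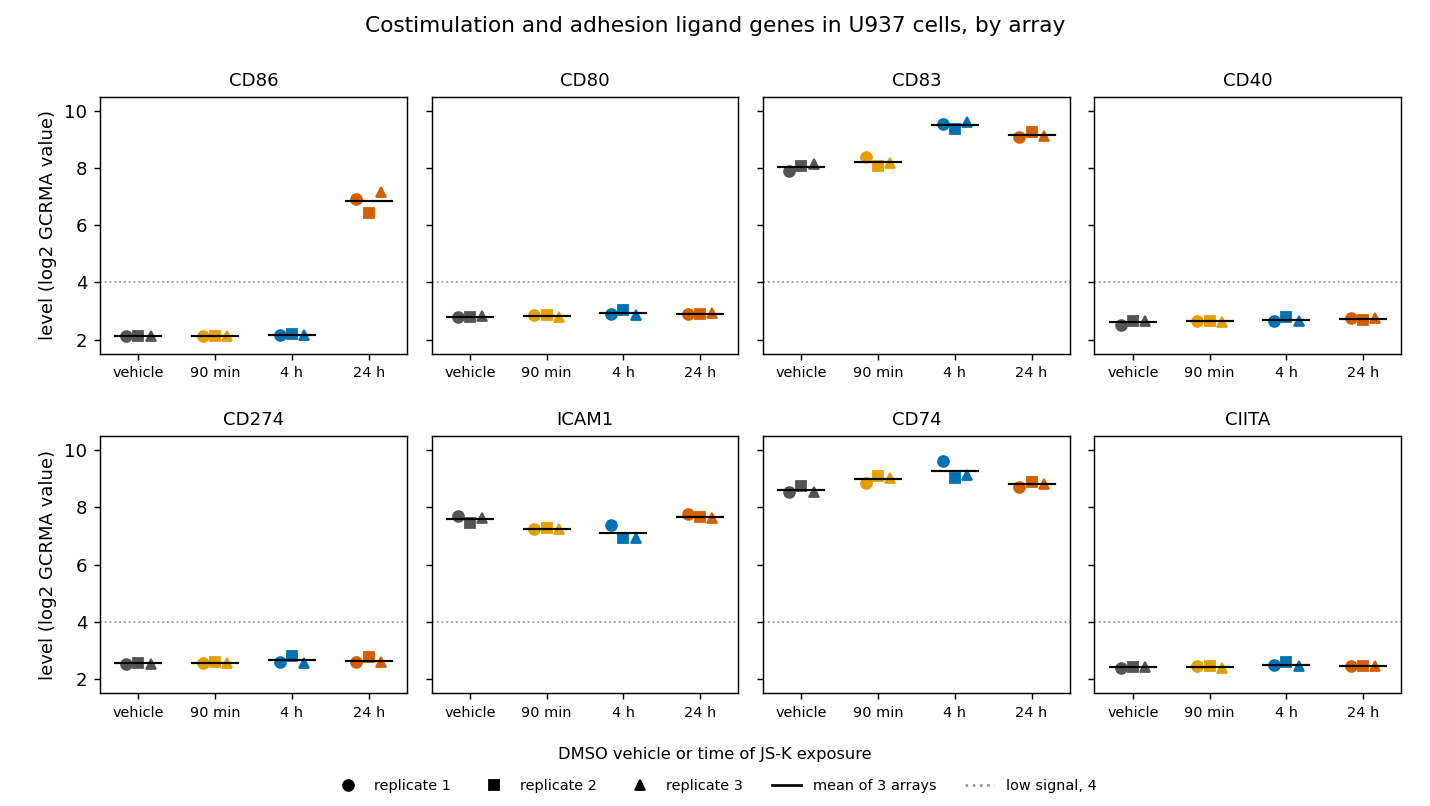
Deposited log2 level (vertical axis) of each of the 8 genes on every array, by group on the horizontal axis (vehicle, then JS-K for 90 min, 4 h and 24 h, 3 arrays each). CD86 sits between 2.11 and 2.19 on 9 arrays and between 6.43 and 7.18 on the 3 arrays of 24 h, while CD80, CD40, CD274 and CIITA stay under 4 on all 12 arrays.

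**Figure D2:**
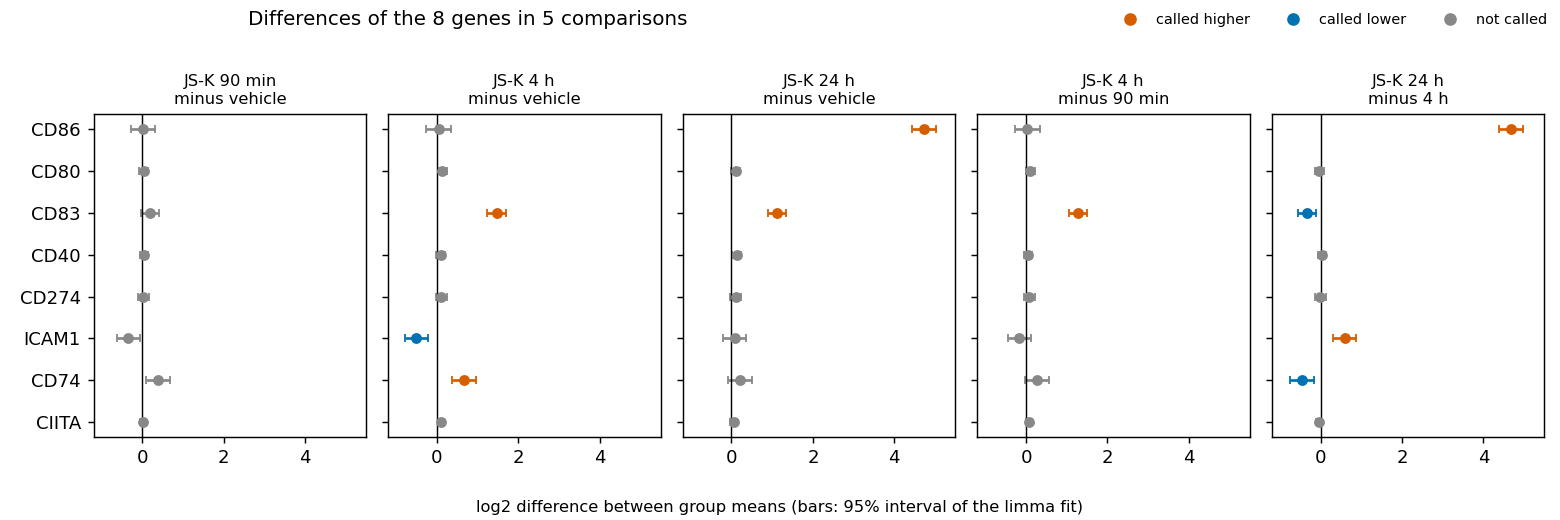
Fitted log2 difference between group means (horizontal axis) with its 95% interval for each gene in the 5 comparisons, with called differences in colour (positive is higher in the group named first). Against vehicle, CD86 stands at 4.73 after 24 h, CD83 at 1.47 after 4 h and 1.12 after 24 h, and the other differences from vehicle lie within 0.7 of 0.

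CD86 is one of the ligands of CD28, and its gene lies at chromosome 3, bases 122055362 to 122121136 on GRCh38.p14. Its probe set 210895_s_at read 2.11, 2.12 and 2.12 with vehicle, 2.13, 2.14 and 2.11 after 90 min, 2.15, 2.19 and 2.14 after 4 h, and 6.92, 6.43 and 7.18 after 24 h of JS-K. The 9 arrays of the other groups all lie in the low-signal range, and every 24 h array lies far above every one of them. The mean was 6.84 ± 0.38 at 24 h and 2.12 ± 0.01 with vehicle (SD, n = 3 each). Since the vehicle value is only a bound, this probe set read at least 7.17-fold higher at 24 h, set against the low-signal level of 4. That bound holds for this probe set only, as the other CD86 probe sets, given below, differed by less. Probe set 210895_s_at was read because it is the brightest by its mean over all arrays, those of 24 h included. In the other groups 205685_at was brighter, with means of 2.77, 2.78 and 2.86 for vehicle, 90 min and 4 h. Those of 210895_s_at were 2.12, 2.12 and 2.16. The choice thus rests on the 24 h levels being compared and favours a large 24 h difference. The fitted difference of 210895_s_at was 4.73 ± 0.14 (95% interval 4.43 to 5.03, limma adjusted p = 1.76e-10). The p-value does not allow for that choice. The fitted value rests on a vehicle level at the floor of the signal, so its exact size carries less than the bound. Between 24 h and 4 h, the difference was 4.68 ± 0.14 (adjusted p = 8.41e-10), again with the 4 h level at that floor.

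The earlier times showed no such change in CD86. Its difference from vehicle was 0.01 ± 0.14 at 90 min (95% interval -0.29 to 0.31, limma adjusted p = 0.981) and 0.04 ± 0.14 at 4 h (adjusted p = 0.793), both between values in the low-signal range. A mean under 4 with vehicle that reached 4 at 24 h was seen for 248 genes, or 1.25% of those measured, and CD86 was one of them. A called rise of at least 2-fold at 24 h was seen for 4.62% of genes. The spread of CD86 was uneven, with an SD of 0.38 at 24 h against 0.01 to 0.02 in the other groups, and the fit pools these. With only the 6 arrays of the comparison the adjusted p was 9.86e-06. The poly-A controls averaged 3.04, 3.08, 7.02 and 8.47 for vehicle, 90 min, 4 h and 24 h. The hybridization controls averaged 11.7 at 24 h, against 9.96 with vehicle. The part of what either set of controls reflects in the CD86 level was not tested.

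The other 2 probe sets of CD86 moved the same way at 24 h. Probe set 205685_at read 3.71, 4.56 and 4.20 after 24 h, against 2.75, 2.78 and 2.76 with vehicle, a difference of 1.39 ± 0.16. Probe set 205686_s_at read 3.28, 2.97 and 3.71 after 24 h, against 2.12, 2.14 and 2.14 with vehicle, a difference of 1.18 ± 0.13. In both, the 3 arrays of 24 h lie above the 3 vehicle arrays, and both were called, at adjusted p-values of 2.33e-05 and 1.62e-05 over all probe sets (limma). Both sets of values lie near or under the edge of low signal. Averaging the 3 probe sets gave a CD86 difference of 2.43 at 24 h in place of 4.73. In a bulk culture, more cells with CD86 mRNA and more of it per cell cannot be told apart.

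**Figure D3:**
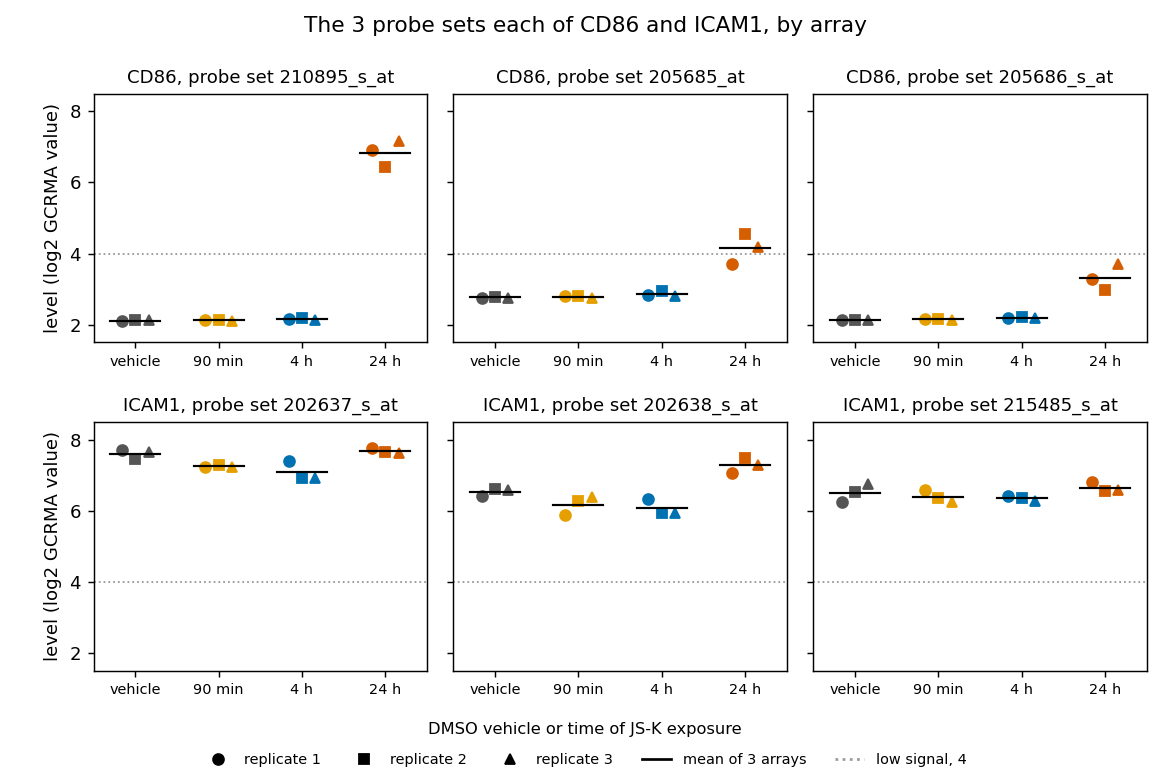
Deposited log2 level (vertical axis) of each probe set of CD86 and of ICAM1 on the 12 arrays, by group on the horizontal axis. All 3 CD86 probe sets lie higher at 24 h than in the other groups, whereas for ICAM1 one probe set reaches 7.06 to 7.48 at 24 h, against 6.42 to 6.60 with vehicle, and the other 2 overlap their vehicle values at 24 h.

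CD80, the other CD28 ligand, showed no level above low signal. Probe set 1555689_at read 2.78, 2.80 and 2.84 with vehicle, 2.85, 2.87 and 2.77 after 90 min, 2.90, 3.04 and 2.86 after 4 h and 2.90, 2.90 and 2.92 after 24 h. The 3 arrays of 24 h lie a little above those of vehicle, but all 12 lie under 4, where levels have no reliable order. Its difference was 0.10 ± 0.05 at 24 h (limma adjusted p = 0.116) and 0.13 ± 0.05 at 4 h (adjusted p = 0.0562).

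CD83, a surface glycoprotein of mature dendritic cells that steadies CD86 and MHC class II on the membrane in mice, moved earlier. The gene, at chromosome 6, bases 14117256 to 14136918, is read by the single probe set 204440_at. Its levels were 7.91, 8.06 and 8.13 with vehicle, 8.40, 8.08 and 8.19 after 90 min, 9.53, 9.36 and 9.60 after 4 h, and 9.09, 9.27 and 9.12 after 24 h. The 4 h arrays are the highest of all 12, the 24 h arrays come next without overlap, and the 90 min arrays overlap those of vehicle. Means were 8.03 ± 0.11, 8.22 ± 0.16, 9.50 ± 0.13 and 9.16 ± 0.10 for vehicle, 90 min, 4 h and 24 h (SD, n = 3 each).

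Against vehicle, CD83 rose by 1.47 ± 0.10 at 4 h (limma adjusted p = 1.12e-06) and by 1.12 ± 0.10 at 24 h (adjusted p = 2.08e-06). At 4 h its rise ranked 119 of 19775 genes, and at 24 h 749. The step from 4 h against 90 min was 1.27 ± 0.10 (adjusted p = 1.27e-05) and ranked 51. At 90 min the difference from vehicle was 0.19 ± 0.10 (adjusted p = 0.392). The poly-A controls averaged 3.08 at 90 min and 7.02 at 4 h, so they stepped up where CD83 did. The part of what they reflect in the CD83 level was not tested. CD83 then fell by 0.34 ± 0.10 at 24 h relative to 4 h (adjusted p = 0.0294). That last call ended in 6 of 23 alternatives, among them subtraction of array medians (adjusted p = 0.107) and the fits without 4 h replicate 1 or 3 or without 24 h replicate 1 or 3 (0.0761 to 0.120).

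CD40, the receptor through which helper T cells license the presenting cell, and CD274, the PD-1 ligand, both stayed in the low-signal range. CD40 (probe set 35150_at) read 2.52, 2.64 and 2.65 with vehicle, 2.65, 2.66 and 2.62 after 90 min, 2.65, 2.77 and 2.65 after 4 h and 2.77, 2.67 and 2.75 after 24 h. CD274 (probe set 223834_at) read 2.53, 2.56 and 2.53 with vehicle, 2.57, 2.57 and 2.54 after 90 min, 2.58, 2.80 and 2.55 after 4 h and 2.58, 2.76 and 2.59 after 24 h. Neither gene has an array at 4. The 24 h difference from vehicle was 0.13 ± 0.05 for CD40 (limma adjusted p = 0.0528) and 0.10 ± 0.06 for CD274 (adjusted p = 0.188).

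Together with CIITA, which is described with CD74, these made 4 genes without a value above low signal. Their 12 probe sets ran between 1.96 and 3.04 over all arrays. Counting arrays that do not overlap, 6 of the 8 genes lay higher than vehicle on every array at 4 h and again at 24 h, of which 3 and 4 were these dim genes. That count carries little, since 51.3% and 60.6% of all genes did so, and 82.6% and 87.6% of the 9906 genes with every group mean under 4. In CD80, CD40, CD274 and CIITA the highest of the 12 values belongs to replicate 2 of the 4 h group, the array with the highest median. Without that array, 5 of the 8 genes in place of 2 were called against vehicle at 24 h, as were 73.4% of all genes, the added ones being CD80, CD40 and CIITA at unchanged differences of 0.10, 0.13 and 0.05. As no value of these 4 genes rises above low signal, neither a change nor its absence can be read from them.

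ICAM1, the adhesion ligand of LFA-1, followed a course of its own. The gene lies at chromosome 19, bases 10271120 to 10286615. Probe set 202637_s_at read 7.70, 7.45 and 7.64 with vehicle, 7.24, 7.29 and 7.23 after 90 min, 7.40, 6.93 and 6.94 after 4 h, and 7.77, 7.66 and 7.62 after 24 h. The arrays of 90 min and 4 h all lie under those of vehicle, while the 24 h arrays overlap them. Against vehicle, ICAM1 fell by 0.51 ± 0.13 at 4 h (limma adjusted p = 0.0129), and its difference was -0.35 ± 0.13 at 90 min (adjusted p = 0.144) and 0.09 ± 0.13 at 24 h (adjusted p = 0.569). At 24 h it was higher than at 4 h by 0.59 ± 0.13 (adjusted p = 0.00418), or by 0.29 with array weights.

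The fall of ICAM1 at 4 h was close to the threshold, with differences from -0.66 to -0.23 over the alternatives. The call ended after quantile normalization (adjusted p = 0.0521), with the 6 arrays of the comparison alone (0.0750), against a fold of 1.5, and without vehicle replicate 1 (0.0531) or vehicle replicate 3 (0.0504). Its other probe sets differed from vehicle at 4 h by -0.47 ± 0.17 (202638_s_at, adjusted p = 0.0519 over all probe sets) and -0.16 ± 0.15 (215485_s_at, adjusted p = 0.377), neither of them called. Probe set 202638_s_at read 7.06, 7.48 and 7.30 after 24 h, against 6.42, 6.60 and 6.59 with vehicle, and was called higher by 0.74 ± 0.17 (adjusted p = 0.00525). It was also 1.21 ± 0.17 higher at 24 h than at 4 h (adjusted p = 0.000281). Probe set 215485_s_at read 6.82, 6.55 and 6.59 after 24 h, against 6.24, 6.54 and 6.74 with vehicle. The 24 h values of the last probe set overlap those of vehicle, and it was called in none of the 5 comparisons. With the mean of its 3 probe sets, ICAM1 was called higher at 24 h by 0.33 (adjusted p = 0.017).

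CD74, the invariant chain of MHC class II, was raised at 4 h. The gene lies on the minus strand of chromosome 5, bases 150401639 to 150412910. Probe set 209619_at read 8.55, 8.74 and 8.54 with vehicle, 8.87, 9.09 and 9.02 after 90 min, 9.63, 9.02 and 9.14 after 4 h, and 8.73, 8.89 and 8.81 after 24 h. Every array of 90 min and of 4 h lies above the vehicle arrays, replicate 1 of 4 h stands above the other 2, and the 24 h arrays overlap those of vehicle. The remaining 2 CD74 probe sets stayed between 2.20 and 2.41 on all arrays.

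Against vehicle, CD74 rose by 0.65 ± 0.14 at 4 h (limma adjusted p = 0.00379), with differences of 0.38 ± 0.14 at 90 min (adjusted p = 0.118) and 0.20 ± 0.14 at 24 h (adjusted p = 0.219). The 4 h difference was 0.25 with the mean of its probe sets and 1.06 with array weights. At 24 h relative to 4 h it fell by 0.45 ± 0.14 (adjusted p = 0.028), with differences from -0.81 to -0.16 over the alternatives. Without 4 h replicate 1 that difference was -0.27 (adjusted p = 0.0717), and the call also ended without 24 h replicate 1 (0.0945) or 24 h replicate 3 (0.0693), with array medians subtracted (0.0926) and in 3 further alternatives. At 90 min CD74 was called once 4 h replicate 1 was left out (adjusted p = 0.0154), and in 3 other alternatives.

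CIITA, the factor that sets the output of MHC class II genes, had no level above low signal beside CD74. Probe set 205101_at read 2.39, 2.42 and 2.41 with vehicle, 2.44, 2.44 and 2.39 after 90 min, 2.47, 2.59 and 2.44 after 4 h and 2.46, 2.46 and 2.46 after 24 h. All 12 values lie within the range of low signal. Its difference was 0.10 ± 0.04 at 4 h (limma adjusted p = 0.0504) and 0.05 ± 0.04 at 24 h (adjusted p = 0.213).

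The chains that CD74 escorts gave a course of their own for HLA-DRA, the alpha chain of HLA-DR. Its probe set 208894_at read 4.95, 4.85 and 5.05 with vehicle, 7.51, 7.50 and 7.64 after 90 min, 7.85, 7.03 and 7.72 after 4 h and 4.84, 4.22 and 3.96 after 24 h. All 6 arrays of 90 min and 4 h lie above every vehicle array, and the 24 h arrays lie just under or well under the vehicle arrays. HLA-DRA rose by 2.60 ± 0.24 at 90 min (limma adjusted p = 2.91e-05) and by 2.58 ± 0.24 at 4 h (adjusted p = 9.99e-06), and fell by 3.19 ± 0.24 at 24 h relative to 4 h (adjusted p = 9.33e-07). Its difference at 24 h against vehicle was -0.61 ± 0.24 (adjusted p = 0.064), which was called in 7 of 23 alternatives.

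Of the 10 measured MHC class II chains, 2 rose and 1 fell at 90 min, 4 rose and 1 fell at 4 h, and 2 rose and 1 fell at 24 h, where 9.64%, 40.6% and 36.7% of all genes were called. One of the 90 min rises, HLA-DRB1, was not called with the replicate number as a block (adjusted p = 0.0712). HLA-DRB1, a beta chain whose probe sets can also read its close paralogs, rose by 0.60 ± 0.10 at 24 h (limma adjusted p = 0.00046). HLA-DOB, a chain of the molecule that restrains peptide loading, fell by 2.07 ± 0.14 at 24 h (adjusted p = 1.36e-07), to 2.73, 2.71 and 2.74 after 24 h, against 4.79, 4.70 and 4.91 with vehicle. Its values from 90 min on are in the low-signal range, so against the level of 4 it was at least 1.74-fold lower at 24 h. HLA-DOA, its partner chain, was called at 0.35 ± 0.11 (adjusted p = 0.0301) with every group mean under 4, a call that ended in 7 of 22 alternatives. The median difference of the chains was 0.16 at 90 min, 0.24 at 4 h and 0.07 at 24 h, against 0.01, 0.06 and 0.06 for all genes.

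**Figure D4:**
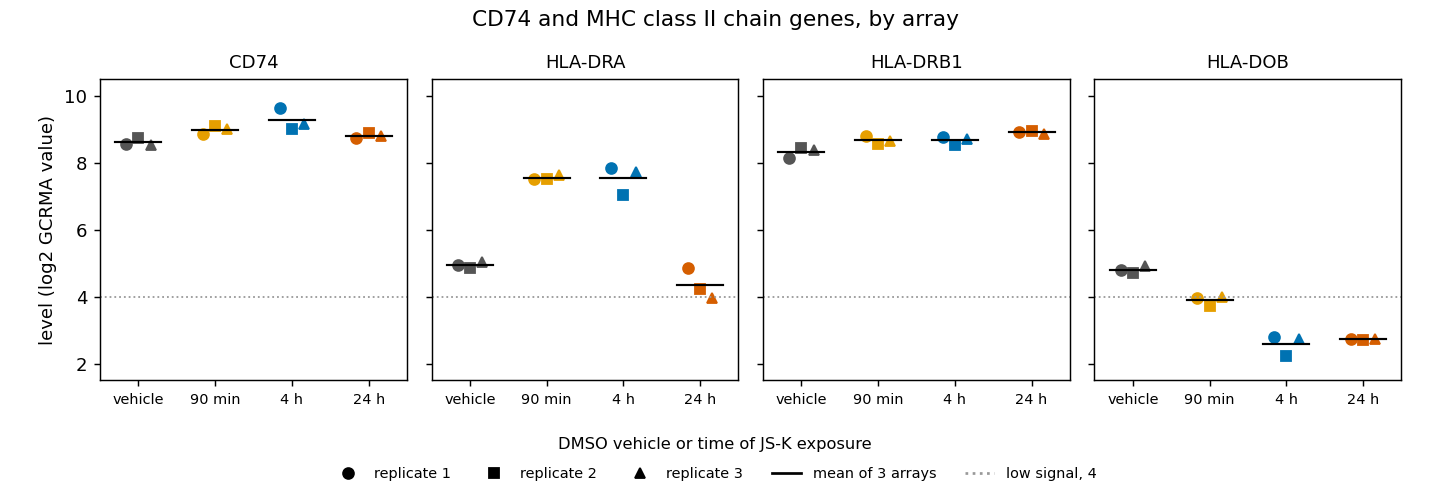
Deposited log2 level (vertical axis) on the 12 arrays, by group on the horizontal axis, of CD74, HLA-DRA, HLA-DRB1 and HLA-DOB. HLA-DRA reads 7.03 to 7.85 after 90 min and 4 h, against 4.85 to 5.05 with vehicle, the mean of CD74 is highest after 4 h, and HLA-DOB lies under 4 on all arrays of 90 min, 4 h and 24 h.

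Among the 7 measured factors that bind MHC class II promoters with CIITA, 1 rose and 3 fell at 24 h (36.7% of all genes called). RFXAP fell by 1.43 ± 0.10 (limma adjusted p = 1.94e-07) and RFXANK by 0.62 ± 0.09 (adjusted p = 9.1e-05). Both are subunits of the RFX complex. Of the NF-Y subunits, which bind the CCAAT box, NFYA fell by 1.27 ± 0.12 (adjusted p = 1.98e-06) and NFYC rose by 0.37 ± 0.12 (adjusted p = 0.024), the last a call that ended in 6 of 23 alternatives. The median difference of these factors at 24 h was -0.11, against 0.06 for all genes.

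CD74 also serves as the receptor of MIF, and of 5 measured genes around that pair 1 rose and 2 fell at 24 h (36.7% of all genes called). MIF itself read 11.91, 11.93 and 11.87 after 24 h, against 12.77, 12.90 and 12.94 with vehicle, and fell by 0.97 ± 0.07 (limma adjusted p = 4.74e-07). The 24 h arrays lie under every vehicle array. CXCR4, a chemokine receptor that can pair with CD74, fell by 0.16 ± 0.04 at 24 h (adjusted p = 0.0129, a call that ended in 4 of 23 alternatives) but rose by 0.35 ± 0.04 at 90 min (adjusted p = 0.000365). CD44, which transmits the MIF signal beside CD74 and is itself an adhesion receptor, rose by 1.08 ± 0.07 at 24 h (adjusted p = 1.78e-07). MARCHF1, the ligase that removes CD86 and MHC class II from the surface, stayed under 4 in every group, at 0.18 ± 0.09 above vehicle at 24 h (adjusted p = 0.11).

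Beyond the 8 genes, 19 further costimulatory and coinhibitory ligands were measured. At 90 min 2 rose and 1 fell, at 4 h 5 rose and 1 fell, and at 24 h 6 rose and 3 fell, against 9.64%, 40.6% and 36.7% of all genes called. CD58, the ligand of the T cell receptor CD2, read 10.96, 11.10 and 10.91 after 24 h, against 9.31, 9.49 and 9.60 with vehicle, a rise of 1.52 ± 0.08 (limma adjusted p = 1.22e-08). It had already risen by 0.89 ± 0.08 at 90 min (adjusted p = 1.7e-05). VSIR, also called VISTA, a restraining ligand of myeloid cells, rose by 1.07 ± 0.11 at 90 min (adjusted p = 5.35e-05) and by 1.36 ± 0.11 at 24 h (adjusted p = 5.31e-07). Both genes lie above vehicle on all arrays of all 3 times.

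NECTIN2, a ligand of the T cell receptors CD226 and TIGIT, read 8.15, 7.91 and 8.26 after 24 h, against 6.51, 6.67 and 6.57 with vehicle, a rise of 1.52 ± 0.13 (limma adjusted p = 1.16e-06). TNFSF14, also called LIGHT, rose by 1.45 ± 0.19 at 24 h (adjusted p = 5.93e-05), with 5.69, 5.63 and 4.95 after 24 h, against 3.76, 3.95 and 4.21 with vehicle. The 3 ligands that fell at 24 h were chosen for mention after their values were seen. LGALS9, or galectin-9, fell by 1.25 ± 0.10 (adjusted p = 7.7e-07). PVR, another ligand of CD226 and TIGIT, fell by 0.58 ± 0.19 (adjusted p = 0.0285), and CD47, which restrains phagocytes, fell by 0.17 ± 0.06 (adjusted p = 0.0378). The last 2 calls ended in 6 and 8 of 23 alternatives. The median difference of the 19 ligands at 24 h was 0.07, near that of all genes.

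Of 13 further adhesion ligands, 4 rose and 1 fell at 24 h, a share near the 36.7% of all genes called, with a median difference of 0.15, against 0.06 for all genes. PECAM1, which joins leukocytes to endothelium, read 10.74, 10.71 and 10.58 after 24 h, against 9.31, 9.19 and 9.17 with vehicle, a rise of 1.45 ± 0.08 (limma adjusted p = 1.82e-08). CD44 is given above, and CD99, which acts in the passage of leukocytes through endothelium, rose by 0.60 ± 0.06 at 24 h (adjusted p = 2.72e-06). ICAM2, another LFA-1 ligand, fell by 0.48 ± 0.17 (adjusted p = 0.043), a call that ended in 9 of 23 alternatives. PECAM1 and CD44 lie above vehicle on every array of all 3 times, while CD99 lay lower at 90 min, by 0.26 ± 0.06 (adjusted p = 0.0107).

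**Figure D5:**
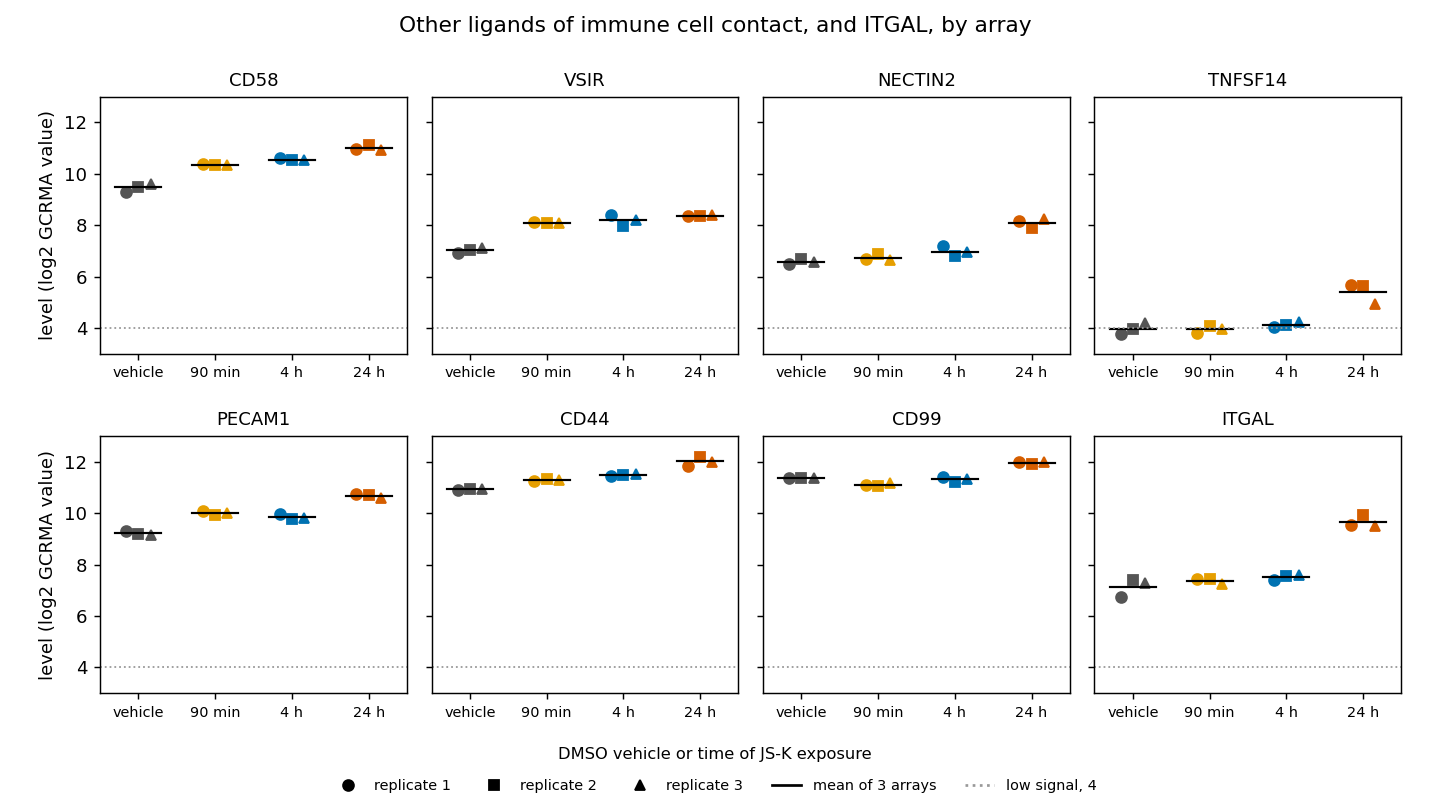
Deposited log2 level (vertical axis) on the 12 arrays, by group on the horizontal axis, of CD58, VSIR, NECTIN2, TNFSF14, PECAM1, CD44, CD99 and ITGAL. CD58 and VSIR are already above vehicle at 90 min, whereas NECTIN2, TNFSF14 and ITGAL have their main step at 24 h.

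The receptors that these ligands meet were also read, although U937 cells are not T cells. ITGAL, the alpha chain of LFA-1, read 9.56, 9.93 and 9.49 after 24 h, against 6.74, 7.40 and 7.29 with vehicle, a rise of 2.51 ± 0.17 (limma adjusted p = 1.19e-07). ITGB2, the beta chain shared by LFA-1 and its relatives, differed by 0.23 ± 0.09 at 24 h against vehicle (adjusted p = 0.0623) and was called 0.53 ± 0.09 higher at 24 h than at 4 h (adjusted p = 0.000624). Of the alpha chains of the related integrins that bind ICAM1, ITGAM rose by 1.57 ± 0.08 (adjusted p = 1.6e-08) and ITGAX by 2.42 ± 0.15 (adjusted p = 7.37e-08) at 24 h. ITGAX read 3.25 to 3.39 with vehicle, under the edge of low signal, so it was at least 3.31-fold higher, set against the level of 4. CD28 and CTLA4, the receptors of CD86 and CD80, had every group mean under 4, with adjusted p-values of 0.157 and 0.51 at 24 h. In all, 3 of 7 measured receptors rose at 24 h and none fell (36.7% of all genes called, 17.8% higher), with a median difference of 0.23, against 0.06 for all genes. PDCD1 and CD40LG were not analysed here.

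Markers of the line and of other cells were read beside CD86 and CD83. Of 8 monocyte markers, 4 reached a mean of 4 and these 4 rose at 24 h, where 17.8% of all genes were called higher. CSF1R was up by 2.80 ± 0.23 (limma adjusted p = 9.31e-07), FCGR2A by 2.54 ± 0.09 (adjusted p = 8.63e-10) and LYZ by 0.53 ± 0.13 (adjusted p = 0.00682), beside ITGAM. CD14, FCGR1A, MRC1 and CD163, which mark blood monocytes and macrophages, had every group mean under 4. Summed as linear signal (2 raised to the log2 level), the monocyte markers ran from 12556 to 13846 with vehicle, 17122 to 20060 after 90 min, 17794 to 28311 after 4 h and 20031 to 20842 after 24 h, a sum made up mostly of LYZ. The other 7 markers summed to 421 to 480.0, 455 to 496, 621 to 681 and 1939 to 2074 in the same order.

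Of 10 dendritic cell markers, 4 were called higher at 24 h (17.8% of all genes), and only ITGAX and FSCN1 reached a mean of 4. FSCN1, an actin bundling protein, rose by 0.67 ± 0.14 (limma adjusted p = 0.002), while CD209 and CLEC10A were called with all means under 4, the last a call that ended in 13 of 22 alternatives. The summed level of the 10 markers ran from 122 to 135 after 24 h, against 65.0 to 69.6 with vehicle. Most of that difference came from ITGAX, the integrin chain given above, which averaged 5.73 after 24 h and 3.30 with vehicle. CD1A, CD1B, CD1C, XCR1, LAMP3 and CCR7 had every group mean under 4. Of 6 B cell markers only PAX5 reached 4, and it fell by 1.65 ± 0.29 at 24 h (adjusted p = 0.000597), where 18.9% of all genes were called lower. The summed levels of the B cell markers were 51.4 to 72.7 after 24 h and 95.03 to 104.5 with vehicle. None of 8 T cell markers reached 4, with summed levels of 41.2 to 42.2 after 24 h and 38.7 to 39.8 with vehicle. Of them, 1, TRAT1, was called at 0.20 ± 0.07 (adjusted p = 0.0335, ended in 6 of 22 alternatives), against 17.8% of all genes called higher. The part of any such shift in the levels of CD86 and CD83 was not tested.

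Over the 12 arrays, the genes whose course was most like that of CD86 were TDO2, a tryptophan dioxygenase, with Pearson's r = 0.998, CXorf65 with r = 0.997 and LOC100996756 with r = 0.996, among 9868 other genes with a group mean of at least 4. TDO2 averaged 2.23 with vehicle, 2.30 after 90 min, 2.43 after 4 h and 7.78 after 24 h. These correlations describe a shared step on the 3 arrays of 24 h, since the points are 4 groups and not 12 independent conditions. For CD83 the nearest genes were BNC2, a zinc finger protein (r = 0.987), UBAP1, a protein of the ESCRT-I sorting complex (r = 0.985), and FOXO3, a forkhead transcription factor (r = 0.980). BNC2 averaged 5.40, 5.70, 7.24 and 6.63 for vehicle, 90 min, 4 h and 24 h, so that it too was highest at 4 h.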

How the data were processed

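RNA of 12 cultures (4 groups of 3) was read on arrays. Per the labels' protocols, random hexamers primed the biotin labelling of total RNA with a whole-transcript kit, while the probe set names are those of a 3' design. The authors deposited log2 values made with GCRMA (sequence-based background correction, quantile normalization, summary of probes) in Affymetrix Expression Console, per the submitters' processing notes, with no version given. GCRMA compresses dim probe sets to a floor with very small spread, which can make small differences there look precise. Scanner intensities and metabolite measurements were not used here.

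The array held 54675 probe sets. A single gene symbol was listed for 41097 of them, 41043 of which matched RefSeq (GRCh38.p14), while 1801 had several symbols and 11777 had no symbol. Each of 19775 genes was read from its brightest probe set, by the mean of all 12 arrays. No level filter was set. Sequences and coordinates are RefSeq's, and 6 of the 8 genes had an upstream window. None of the 22 probe sets was listed with a further symbol.

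Group differences came from limma 3.58.1 under R 4.3.3 (eBayes with trend; 4 group means, all 12 arrays, 8 residual degrees of freedom), with Benjamini-Hochberg adjustment over all genes and a call at 0.05. Probe sets were also fitted on their own, adjusted over all probe sets. The fit was tested on simulated data for 24 h against vehicle with 19775 genes, in which 80 of 100 genes with a 2-fold change were called, as were 98 of 100 with a 4-fold change. The simulated noise was independent between genes and arrays, and changes were added only to genes with a mean over 4. These rates thus do not cover dim genes, CD86 by its 12-array mean among them, or shifts shared by a whole array. Errors of levels are SDs of 3 arrays. The number of arrays limits the precision, and arrays carry no read depth. Figures used matplotlib 3.10.9.

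The genes, the lists and the alternatives were chosen with earlier results of these data known. From each list, up to 4 called genes with the largest 24 h difference from vehicle were named, with fixed partners (ITGAL, ITGB2, CD28, CTLA4, MIF, HLA-DRA, MARCHF1) and any marker of other cells reaching 4. Similar genes were the 3 with the highest Pearson's r. Whether equal replicate numbers pair arrays was checked: of 18 same-numbered pairs across groups, 7 had correlated deviations over 0.1 (range -0.13 to 0.37), against 5 of 36 pairs with different numbers. The 3 pairs of 90 min and vehicle were all over 0.1 (0.128 to 0.229), so the numbers were taken to pair arrays in that comparison, where the block changed no call of the 8 genes. Except where a block is named, the 90 min values given are nevertheless from the fit without it. In no other comparison were all 3 pairs over 0.1, and there the numbers were not taken as pairs. Alternatives were a constant spread, 2 filters on dim genes, the mean of probe sets, every probe set, quantile normalization, array medians subtracted, array weights, a replicate block, fits of the 6 arrays being compared, a test against a fold of 1.5 (treat) and each array left out.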

Additional observations from a re-analysis of the deposited data

How the results depend on the processing

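Over all alternatives, the 8 genes gave 880 values, of which 827 kept direction and call, 20 lost a call, 33 gained one and none turned a called direction. The rise of CD86 at 24 h was called in all 22 alternatives in which it was tested, between 2.43 and 4.93 (4.56 to 4.93 with an array left out). Counts of the 8 genes called moved as follows. Array weights, whose estimation did not converge, called 4 at 90 min, 5 at 4 h, 7 at 24 h, 4 for 4 h against 90 min and 7 in the F test, against 0, 3, 2, 1 and 4. That fit called 48.2%, 81.5%, 81.8% and 52.9% of all genes in the 4 comparisons. The share of all genes passing the F test was counted for the main fit only (38.1%). The F test counts of the alternatives thus stand without such a share and are not read as a result. Quantile normalization called 1 at 90 min (11.9% of all genes). The 6 arrays of a comparison alone called 2 at 90 min (12.7% of all genes) and 5 at 24 h (73.7%). Genes with a mean of at least 4 gave 1 at 24 h (67.2% of the 9551 genes tested), because the 12-array mean of CD86 is under 4 and it was not tested. Subtracted medians gave 2 for 24 h against 4 h (19.5% of all genes), where the count was 4. The test against a fold of 1.5 gave 1 at 4 h (2.77% of all genes) and 1 for 24 h against 4 h (4.93%). With 1 array left out the counts ran from 0 to 2 at 90 min (2 without 4 h replicate 1), 2 to 5 at 4 h (5 without 4 h replicate 3, with 58.5% of all genes), 2 to 5 at 24 h (5 without 4 h replicate 2, with 73.4% of all genes), 1 to 1 for 4 h against 90 min, 2 to 4 for 24 h against 4 h (2 without 4 h replicate 1, 24 h replicate 1 or 24 h replicate 3) and 4 to 5 in the F test.

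With the replicate number as a replicate block, the counts were 0, 4, 2, 1 and 4 in the 5 comparisons. That fit called 9.83%, 51.0%, 40.5%, 11.1% and 23.8% of all genes in the same order. CD86 at 24 h stayed at 4.73 (limma adjusted p = 6.14e-09), and CIITA was called at 4 h (adjusted p = 0.0356).

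The 48 other named genes gave 5455 values, of which 5021 kept direction and call, 313 lost a call, 116 gained one and 5 turned with a call on the other side. With array weights these were HLA-DRA (0.334), MIF (0.0909) and CTSS (0.141) for 4 h against 90 min and MARCHF1 (0.0692) for 24 h against 4 h. With the mean of probe sets it was CTSS (0.444) at 4 h.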

Other observations

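Genes of the interferon gamma route, which induces CIITA, CD274, CD40 and ICAM1 in many cells, were followed as well, and at 24 h 7 of 10 measured genes rose and 1 fell, against 17.8% of all genes higher and 18.9% lower. IRF1, the transcription factor that carries much of that response, read 6.54, 6.50 and 6.19 after 24 h, against 4.99, 5.04 and 5.06 with vehicle, a rise of 1.38 ± 0.18 (limma adjusted p = 4.89e-05). GBP2, an interferon-induced GTPase, rose by 1.55 ± 0.19 (adjusted p = 2.83e-05) and IFNGR1, a chain of the receptor, by 1.08 ± 0.06 (adjusted p = 2.28e-08). IRF8, a factor of the monocyte and dendritic cell lineages, fell at every time, by 0.59 ± 0.09 at 90 min (adjusted p = 0.00164), 1.35 ± 0.09 at 4 h (adjusted p = 1.1e-06) and 1.91 ± 0.09 at 24 h (adjusted p = 1.07e-08). The median difference of the list at 24 h was 0.67, against 0.06 for all genes.

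Of 8 measured genes that carry the CD40 signal, 3 rose and 1 fell at 24 h, with a median difference of 0.47, against 0.06 for all genes. Of all genes, 36.7% were called at 24 h, 17.8% higher and 18.9% lower. TRAF6, an adaptor of CD40, rose by 1.42 ± 0.21 (limma adjusted p = 0.000159), and TRAF5, another adaptor, fell by 1.27 ± 0.15 (adjusted p = 1.47e-05). RELB and TRAF1 were called higher with every group mean under 4. Of 11 measured genes of antigen processing, 4 rose and 1 fell at 24 h (36.7% of all genes called), with a median difference of 0.18. CTSB, a lysosomal protease, rose by 1.73 ± 0.07 (adjusted p = 3.15e-09). CTSS, the protease that trims the invariant chain, rose by 0.66 ± 0.12 (adjusted p = 0.000875), SPPL2A, which cleaves its last membrane stub, rose by 1.07 ± 0.07, and CTSC, a lysosomal dipeptidase, fell by 1.09 ± 0.08.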
